A study of Mus musculus with 8 samples.

Results

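The Mediator complex subunit genes are the mouse genes whose symbol is Med followed by a number, with or without a final l, together with Ccnc, Cdk8 and Cdk19. This rule found 33 genes among the 27179 gene rows of the count matrix, and all 33 passed the filter on low counts that left 16074 genes for testing. They fall into a head of 7 genes, a middle of 9, the scaffold gene Med14, a tail of 9 and a kinase module of 7. The placement of Med14, Med26 and Med27 to Med30 differs between sources, and Med27 to Med30 were counted here with the tail.

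Mediator is the large coactivator that carries signals from DNA-bound transcription factors to RNA polymerase II. Tail subunits, and some of the middle, are the main contacts of activators, the head and middle bind the polymerase and the general transcription factors, and the kinase module of CDK8 or CDK19, cyclin C, MED12 and MED13 docks on the rest reversibly and keeps the polymerase out while it is bound. TFIID, of which TAF8 is a subunit, and Mediator act at the same promoters during assembly of the preinitiation complex. In people, variants of several Mediator genes are known causes of disorders of brain development.

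Polyadenylated RNA of embryonic cerebral cortex from 8 mice, each a separate animal, was sequenced as unstranded libraries. The 4 Taf8-intact embryos are labelled Taf8 +/+ and the 4 Taf8-deleted embryos Taf8 -/lox, a genotype of a minus allele and a lox allele. For the recombinase, its driver and the embryonic stage, nothing is given in the sources used here. The comparison asks which transcripts differ when Taf8 is lost, and here how the genes of a partner complex of TFIID fare.

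Each library held 39590959 to 44788200 counts, and a Mediator gene had between 297 and 13992 counts in a library, so none was near the limit of detection. Taf8 had 1222 to 1491 counts in the intact and 14 to 30 in the deleted libraries (log2 fold change -6.02 ± 0.15, adjusted p = 2.42e-10), so the targeted gene did not go against the label of any library. The cortical markers Emx1, Emx2, Pax6, Tbr1 and Neurod6 were detected in every library, at 46.2 CPM or more, where CPM are counts scaled to the TMM-adjusted size of the library. In the animal numbers, 3 of the 4 intact embryos share the part before the point, whereas the 4 deleted embryos have a different one each and no number is shared between the groups. What that part marks is not stated, so genotype and that number cannot be told apart. The SEs and tests treat the 4 intact embryos as independent, and if a shared number marks a shared origin their spread may be too small.

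The upstream sequences of the genes at the extremes are shown first, because these are the stretches on which TFIID and Mediator meet. They are the 250 bases before the annotated start of the 2 members with the largest fall and the 2 with the largest rise, from RefSeq (GRCm38.p6), 5′ to 3′ on the strand of the gene. Capitals mark matches on either strand to TATAAA (the core of the TATA box), CCGGAA (a core of ETS factor motifs), CCAAT (the NFY motif), GCATGCG (a core of the NRF1 motif) and AAGATGG (a core of the YY1 motif).
Med16 (chr10:79908939-79909188, minus strand): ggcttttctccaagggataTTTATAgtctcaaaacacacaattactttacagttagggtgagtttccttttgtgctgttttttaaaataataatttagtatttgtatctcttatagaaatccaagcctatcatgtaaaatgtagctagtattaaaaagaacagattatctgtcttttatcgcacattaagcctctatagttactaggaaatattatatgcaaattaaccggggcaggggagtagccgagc
Med11 (chr11:70451668-70451917, plus strand): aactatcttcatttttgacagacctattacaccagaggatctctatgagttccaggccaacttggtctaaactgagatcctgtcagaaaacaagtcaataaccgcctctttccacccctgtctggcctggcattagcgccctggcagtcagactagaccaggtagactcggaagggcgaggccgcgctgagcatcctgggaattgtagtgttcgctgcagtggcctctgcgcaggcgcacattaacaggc
Ccnc (chr4:21727451-21727700, plus strand): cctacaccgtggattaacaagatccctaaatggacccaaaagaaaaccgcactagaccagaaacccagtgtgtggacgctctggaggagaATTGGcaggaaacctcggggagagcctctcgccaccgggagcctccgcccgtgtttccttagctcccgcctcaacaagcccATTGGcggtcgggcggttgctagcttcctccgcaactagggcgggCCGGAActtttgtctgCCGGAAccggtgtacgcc
Med26 (chr8:72548311-72548560, minus strand): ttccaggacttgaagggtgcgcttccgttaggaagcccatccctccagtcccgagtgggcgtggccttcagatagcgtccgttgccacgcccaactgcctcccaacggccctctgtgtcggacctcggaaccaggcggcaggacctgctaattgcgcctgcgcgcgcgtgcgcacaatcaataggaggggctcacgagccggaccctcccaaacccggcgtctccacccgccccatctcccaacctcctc
The Med16 stretch holds 1 match to the TATA core on the opposite strand, which begins 231 bases before the start, outside the usual place of a TATA box. In the Ccnc stretch there are 2 ETS cores, 34 and 18 bases before the start, and 2 CCAAT matches on the opposite strand. Neither Med11 nor Med26 had any of these letters in the 250 bases. A window of 250 bases before to 50 after the start was found in RefSeq for 28 of the 33 genes. In that longer window Med11 did hold an ETS core, and Med26 held none of the motifs.

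Across those windows, 14 of 28 members (50%) held the ETS core, against 16.7% of 27025 genes with a window. Of these 14 members 6 rose, 3 fell and 5 did not pass the test. Among all 33 members 13 rose, 9 fell and 11 did not pass, and 63.5% of all genes tested passed. A difference in calls by motif was not tested. The TATA core was found in 3 members, Med16, Med28 and Med7, or 10.7% against 15.7% of all genes. The NRF1 core stood in 3 members (10.7% against 4.01%), the YY1 core in 4 (14.3% against 7.28%) and CCAAT in 11 (39.3% against 41.1%). All members passed the low-count filter, but the genes with a window were not limited to those that did. The motif and GC values over all genes in this paragraph are therefore from an unlike set. A match of letters is not a bound site. The GC content of the windows ran from 39.3% in Med16, the member with the largest fall, to 84.7% in Med13l, with a median of 57.8% (52.7% over all genes).

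Mediator mRNAs changed in opposite directions and by small amounts. In Taf8-deleted cortex 13 of the 33 genes rose, 9 fell and 11 did not pass the threshold of 0.05 on the adjusted p of the edgeR fit to all genes (quasi-likelihood, Benjamini-Hochberg). That is 66.7% of the members, beside 63.5% of all genes tested, with 39.4% higher (30.6% of all genes) and 27.3% lower (32.9% of all genes). Only 2 members, Med16 and Med11, were called with a change of at least 1.5-fold, both downward, which is 6.06% of the members where 20.6% of all genes were past both limits (11.0% upward and 9.54% downward). The largest rise, that of Ccnc, was 1.33-fold. The median log2 fold change of the members was 0.09, and 0.00 over all genes. Without regard to sign, the median change was 0.15 for the members and 0.27 for all genes.

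The values of the groups did not overlap for 21 members, 12 of them higher and 9 lower in the deleted libraries. This is 63.6% of the members and 57.7% of all genes. Replicates lay close together: the coefficient of variation between embryos had a median of 3.45% in the intact group (0.925% to 6.54%) and 4.28% in the deleted group (1.26% to 10.6%). The 11 members that did not pass the test had log2 fold changes between -0.06 and 0.15.

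**Figure D1:**
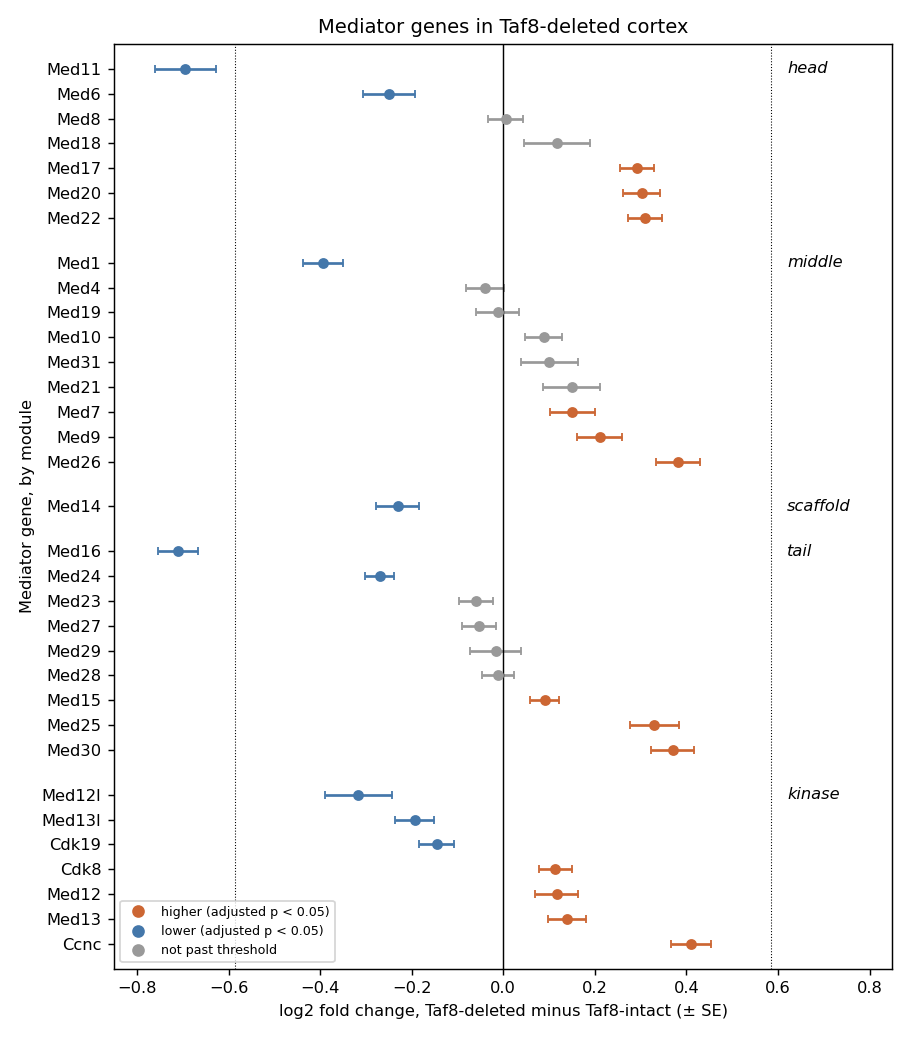
Log2 fold change of each of the 33 Mediator genes (points, with SE as bars), grouped by module and ordered within it; orange and blue mark genes called higher and lower, grey those not past the threshold, and the dotted lines mark 1.5-fold. Only Med11 in the head and Med16 in the tail lie past a dotted line, and every gene of the kinase module is called. Across all genes tested 63.5% are called.

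In bulk tissue, fewer cells of a type and less RNA per cell cannot be told apart. Markers of several cell types moved with the genotype, where 30.6% of all genes tested were called higher and 32.9% lower. Of the neuronal markers 7 of 8 fell, with a summed level of 6177 to 6821 CPM in intact and 4824 to 5236 CPM in deleted libraries, and of 6 interneuron markers 5 fell and 1 rose (672 to 770.5 against 485 to 516 CPM). Of 8 radial glia markers 5 rose and 2 fell (2070.1 to 2365 against 2937 to 3148 CPM), and all 6 endothelial markers rose (134 to 142 against 157 to 195 CPM). Of 6 markers of meningeal fibroblasts 4 rose, with 18.7 CPM in deleted replicate 4 against 60.9 to 146 CPM in the other deleted libraries, and 15.9 to 36.9 CPM in the intact ones. Microglial markers summed to 35.5 to 38.8 and 34.4 to 42.7 CPM, with 2 of 6 higher and 1 lower, and the 5 red blood cell markers found to 84.2 to 101 and 85.9 to 151 CPM, with 2 higher. Lum, a meningeal marker, was at 0 in intact replicate 2, and no marker was at 0 in every library. The part of these shifts in the results for Mediator genes was not tested.

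In the head, which seats the complex on the polymerase, 3 of 7 genes rose (Med22, Med20 and Med17), 2 fell (Med11 and Med6) and 2 did not pass (Med8 and Med18). The share that passed was 71.4%, beside 63.5% of all genes tested. Med11, whose product pairs with MED22 in the head, was at 13.8, 13.4, 14.7 and 13.9 CPM in the Taf8-intact and at 9.18, 7.85, 8.92 and 8.58 CPM in the Taf8-deleted libraries. Every deleted library lay below the lowest intact one. Its change was -0.69 ± 0.07 (log2 ± SE, adjusted p = 2.08e-06), a ratio of 0.618. The partner gene Med22 went the other way. Med22 was at 102, 98.6, 104 and 100.2 CPM in the Taf8-intact and at 126, 129, 129 and 118 CPM in the Taf8-deleted libraries. Again the groups did not overlap, and the change was 0.31 ± 0.04 (log2 ± SE, adjusted p = 1.61e-05).

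Med20, encoding the partner of MED18 in the movable jaw of the head, was at 34.96, 33.9, 36.04 and 32.8 CPM in the Taf8-intact and at 41.5, 43.4, 43.1 and 41.8 CPM in the Taf8-deleted libraries. It rose by 0.30 ± 0.04 (log2 ± SE, adjusted p = 3.60e-05). Med20 is the only member on chromosome 17, where it starts 109.3 kb beyond the end of Taf8. An exon of a pseudogene on the opposite strand covers 21.4% of its exonic bases and another gene on the same strand 7.0%, and reads from overlapping genes cannot be told apart here. Med6, whose product bridges head and middle, was at 21.2, 22.6, 21.2 and 22.5 CPM in the Taf8-intact and at 17.3, 19.01, 17.5 and 19.8 CPM in the Taf8-deleted libraries. The deleted libraries were all lower, with a change of -0.25 ± 0.06 (log2 ± SE, adjusted p = 0.00200). Med17, the central architectural subunit of the head, rose by 0.29 ± 0.04 (log2 ± SE, adjusted p = 2.22e-05), while Med8 and Med18 had log2 fold changes of 0.01 ± 0.04 and 0.12 ± 0.07.

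In the middle, which forms the hinge between head and tail, 3 genes rose (Med26, Med9 and Med7), 1 fell (Med1) and 5 did not pass. The share that passed was 44.4%, beside 55.6% in the tail and 63.5% of all genes tested. Med1, the main docking subunit for nuclear receptors, was at 124, 122, 115 and 118 CPM in the Taf8-intact and at 96.2, 87.04, 86.3 and 95.3 CPM in the Taf8-deleted libraries. No deleted library reached the lowest intact one, and the change was -0.39 ± 0.04 (log2 ± SE, adjusted p = 7.92e-06). Med1 and the tail gene Med24, which also fell, lie 511.3 kb apart on chromosome 11, which carries 7 of the 33 genes.

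Med26, whose product brings elongation factors to the polymerase, was at 18.8, 18.4, 18.1 and 19.4 CPM in the Taf8-intact and at 23.9, 24.6, 25.3 and 23.4 CPM in the Taf8-deleted libraries. All deleted libraries were higher, with a change of 0.38 ± 0.05 (log2 ± SE, adjusted p = 2.00e-05). Med9 was at 31.8, 32.9, 30.1 and 32.4 CPM in the Taf8-intact and at 37.2, 37.5, 38.6 and 33.9 CPM in the Taf8-deleted libraries. The rise was smaller, at 0.21 ± 0.05 (log2 ± SE, adjusted p = 0.00238). Med7, a subunit of the hinge, rose by 0.15 ± 0.05 (log2 ± SE, adjusted p = 0.0159). Its exons share 21.2% of their bases with a long noncoding RNA gene on the opposite strand, those of Med26 12.7% with an antisense gene. The overlap with opposite-strand genes was 92.8% for Med10, 26.3% for Med31 and 11.9% (Zdhhc5) for Med19. Med21, which pairs with MED7 in the hinge, was at 0.15 ± 0.06 with an adjusted p = 0.0520, just beyond the threshold. It was called higher with DESeq2 (adjusted p = 0.0442) and when intact replicate 3 or deleted replicate 1 was left out (adjusted p = 0.0155 and 0.0240). In edgeR it was also called with median-ratio size factors (adjusted p = 0.0415), upper-quartile factors (adjusted p = 0.0106) and library totals only (adjusted p = 0.00907). The same held in edgeR with CPM above 1 in 4 libraries (adjusted p = 0.0242), and for limma voom with quality weights (adjusted p = 0.0246). Med10, Med31, Med4 and Med19 had log2 fold changes of 0.09 ± 0.04, 0.10 ± 0.06, -0.04 ± 0.04 and -0.01 ± 0.05.

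Med14, the backbone that joins head, middle and tail, was at 165, 175, 159 and 153 CPM in the Taf8-intact and at 140.0, 134, 133 and 148 CPM in the Taf8-deleted libraries. It fell by 0.23 ± 0.05 (log2 ± SE, adjusted p = 0.00107), and the highest deleted library lay below the lowest intact one. Med14 and Med12 are the 2 members on the X chromosome.

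Tail genes held the largest fall of all. Med16, a tail subunit gene on chromosome 10 (79894706 to 79908938 in GRCm38), was at 80.3, 81.02, 78.1 and 83.7 CPM in the Taf8-intact and at 47.1, 51.5, 52.4 and 46.5 CPM in the Taf8-deleted libraries. The highest deleted value was far below the lowest intact value. The change was -0.71 ± 0.04 (log2 ± SE, adjusted p = 6.13e-08), a ratio of 0.611, which placed Med16 at percentile 7.05 of the log2 fold changes of all genes, close to Med11 at percentile 7.42. No annotated exon of another gene overlapped those of Med16 or Med11. Med24, whose product sits beside MED16 and MED23 in the tail, was at 182, 178, 172 and 178 CPM in the Taf8-intact and at 146, 144, 152 and 147 CPM in the Taf8-deleted libraries. It fell by 0.27 ± 0.03 (log2 ± SE, adjusted p = 1.42e-05), again with no overlap.

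Med25, a target of acidic activators and of ETS factors of the PEA3 group, was at 175, 167, 160.3 and 173 CPM in the Taf8-intact and at 207, 226, 225 and 191 CPM in the Taf8-deleted libraries. It rose by 0.33 ± 0.05 (log2 ± SE, adjusted p = 1.92e-04), the deleted libraries being spread more widely than the intact ones. Med30 was at 19.97, 20.03, 20.2 and 21.1 CPM in the Taf8-intact and at 25.7, 27.95, 25.5 and 25.9 CPM in the Taf8-deleted libraries. Med30, a subunit found in animals and not in budding yeast, rose by 0.37 ± 0.05 (log2 ± SE, adjusted p = 2.46e-05). Med15, the tail subunit contacted by SREBP and SMAD proteins, rose by 0.09 ± 0.03 (log2 ± SE, adjusted p = 0.0233). Med23, Med27, Med28 and Med29 did not pass, with log2 fold changes of -0.06 ± 0.04, -0.05 ± 0.04, -0.01 ± 0.04 and -0.02 ± 0.06. Thus Med16 and Med24 fell, while Med23, the gene of the third protein of that part of the tail, was at 100 to 104 CPM in intact and 95.3 to 105 CPM in deleted libraries, and the groups overlapped.

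**Figure D2:**
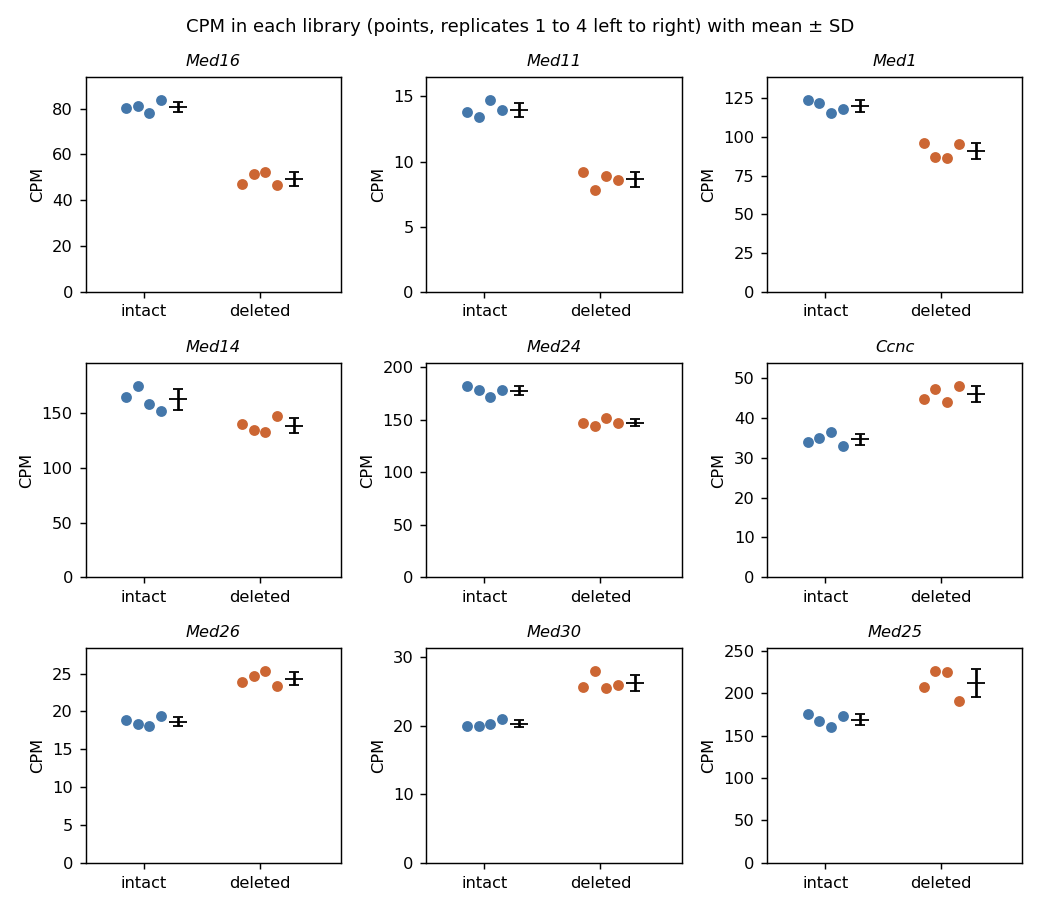
CPM in each library for 9 Mediator genes, with each panel starting at 0; blue points are the 4 Taf8-intact and orange points the 4 Taf8-deleted libraries, and black marks show mean ± SD. In every panel the points of the groups are separated, with Med16, Med11, Med1, Med14 and Med24 lower and Ccnc, Med26, Med30 and Med25 higher in the deleted libraries.

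The kinase module was the only module of more than 1 gene in which every member passed the test, with 4 genes higher and 3 lower. Of all genes tested 63.5% passed, and the calls of Cdk8, Cdk19, Med12 and Med13 were lost in some settings given below. Ccnc, the gene of cyclin C, which activates CDK8 and CDK19, was at 34.1, 34.9, 36.4 and 33.01 CPM in the Taf8-intact and at 44.8, 47.1, 43.9 and 48.1 CPM in the Taf8-deleted libraries. The deleted libraries were all higher. Ccnc rose by 0.41 ± 0.04 (log2 ± SE, adjusted p = 6.14e-06), and 5.40% of its exonic bases lie in exons of Tstd3 on the opposite strand.

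The module has alternative subunits encoded by pairs of paralogs, and in each of the 3 pairs the 2 genes changed in opposite directions. Cdk8, a kinase gene, was at 55.6, 53.00, 52.4 and 52.8 CPM in the Taf8-intact and at 56.6, 57.9, 56.3 and 60.5 CPM in the Taf8-deleted libraries. Its paralog Cdk19 was at 131, 128, 136 and 128 CPM in the Taf8-intact and at 122, 115, 114 and 123 CPM in the Taf8-deleted libraries. The first was higher in every deleted library, by 0.11 ± 0.04 (log2 ± SE, adjusted p = 0.0159), and the second fell by 0.15 ± 0.04 (log2 ± SE, adjusted p = 0.00492). Neither gene of this pair had overlapping groups.

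Med12, whose product activates the kinase, was at 147, 142, 148 and 136 CPM in the Taf8-intact and at 165, 143, 155 and 158 CPM in the Taf8-deleted libraries. Its paralog Med12l was at 43.6, 40.2, 44.7 and 38.9 CPM in the Taf8-intact and at 37.6, 29.6, 31.8 and 35.2 CPM in the Taf8-deleted libraries. Med12 rose by 0.12 ± 0.05 (log2 ± SE, adjusted p = 0.0434) with overlapping groups, and Med12l fell by 0.32 ± 0.07 (log2 ± SE, adjusted p = 0.00267) without overlap. The deleted libraries thus had more of the common partner and less of the rarer one.

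Med13, whose product links the kinase module to the rest of Mediator, was at 265, 275, 282 and 256 CPM in the Taf8-intact and at 307, 281, 290.3 and 309.9 CPM in the Taf8-deleted libraries. Its paralog Med13l was at 197, 193, 211 and 187 CPM in the Taf8-intact and at 179.8, 165, 171 and 174 CPM in the Taf8-deleted libraries. The change was 0.14 ± 0.04 (log2 ± SE, adjusted p = 0.0118) for Med13, whose groups overlapped, and -0.19 ± 0.04 (log2 ± SE, adjusted p = 0.00163) for Med13l, whose groups did not.

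Some of these small changes depended on single libraries or on scaling. The call of Med12 was lost when intact replicate 1, 2 or 4 or deleted replicate 1, 3 or 4 was left out (adjusted p up to 0.0873). Without replicate 4 of both groups, the libraries with the lowest meningeal level among the deleted and the highest among the intact, Cdk8, Med12 and Med13 lost their calls (adjusted p = 0.0986, 0.193 and 0.0914), as did Med7 (adjusted p = 0.109), and 9 members were then called higher and 9 lower. Cdk19 missed the threshold with upper-quartile factors (adjusted p = 0.0544) and with library totals only (adjusted p = 0.0548).

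A ratio of paralogs within a library needs no scaling between libraries. The log2 ratio of Cdk19 to Cdk8 counts was 1.24, 1.27, 1.38 and 1.27 in the intact and 1.102, 0.99, 1.01 and 1.02 in the deleted libraries. For Med12l to Med12 it was -1.76, -1.82, -1.73 and -1.80 against -2.13, -2.27, -2.29 and -2.16. Med13l to Med13 stood at -0.43, -0.51, -0.42 and -0.45 against -0.77, -0.77, -0.76 and -0.84. In all 3 pairs every deleted library lay below every intact library. Among all single genes tested, 57.7% had groups that did not overlap, and the share for ratios of other gene pairs was not computed. The pairs were chosen with earlier results of these data known. The mean differences were -0.26, -0.44 and -0.33, each with p = 0.0286 in a two-sided exact permutation test over 70 arrangements (n = 4 each), the smallest p this design allows, and 0.0286 after adjustment over the 3 pairs.

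Per length, the mRNAs of Cdk19 and Cdk8 were near parity. Cdk19 made up 52.1% ± 1.08 of the pair per kilobase in intact and 47.6% ± 0.855 in deleted cortex (SD, n = 4 each). Med13l held 48.1% ± 0.743 of its pair in intact and 42.4% ± 0.586 in deleted cortex. These pairs were thus close to balance in intact cortex, and Cdk19 and Med13l held a smaller share in deleted cortex. Med12l was the minor partner, with 19.4% ± 0.444 and 15.1% ± 0.687. Of its exonic bases, 15.3% lie in exons of Igsf10 on the opposite strand. P2ry12, a microglial marker gene, lies inside Med12l on the opposite strand and its exons cover 0.0705% of those of Med12l. A transcript on the same strand covers 9.72% of the exonic bases of Med12, and Brip1os on the opposite strand 7.38% of those of Med13.

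**Figure D3:**
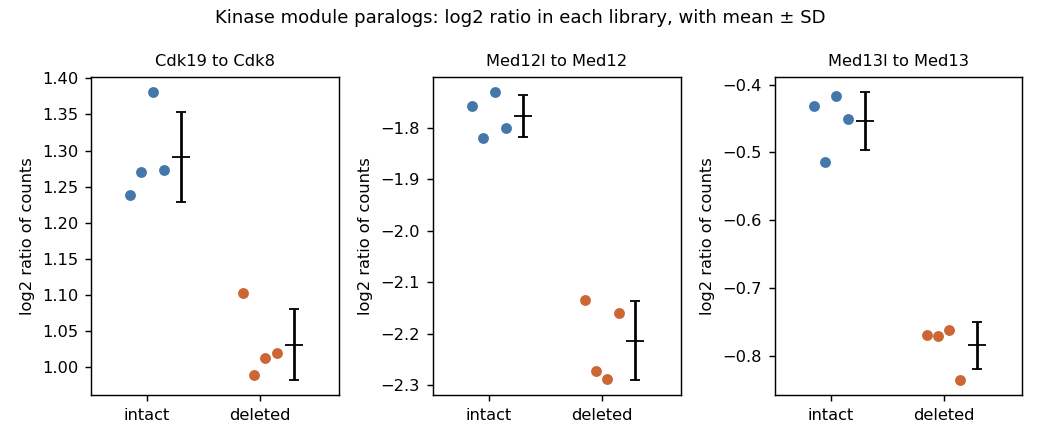
Log2 ratio of the counts of the 3 pairs of kinase module paralogs in each library, on separate axes that do not start at 0; blue points are Taf8-intact and orange points Taf8-deleted libraries, and black marks show mean ± SD. In each pair all 4 deleted libraries lie below all 4 intact libraries.

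Whether the rises and falls balanced in the sum depended on the scale. All 33 genes together had 2412 ± 27.5 and 2409 ± 22.2 CPM in intact and deleted libraries (mean ± SD, n = 4 each). With library totals only the sums were 2360.4 ± 19.4 and 2461 ± 19.1 CPM. On the scale of TMM-scaled CPM per kilobase, which gives long genes less weight, they were 705 ± 6.09 and 721 ± 6.48, and every deleted library lay above every intact one. The head genes summed to 277 ± 3.41 and 313 ± 5.35 CPM, with 273 to 281 CPM in intact and 307 to 319.7 CPM in deleted libraries, and the deleted value was also higher with library totals only (ratio 1.13 under TMM and 1.18) and per kilobase (ratio 1.04). For the kinase module the sums were 871 ± 32.9 and 880.2 ± 35.7 CPM and for the tail 752 ± 14.4 and 739 ± 23.1 CPM, with groups that overlapped. The ratio of the tail sums was 0.983, and 1.03 both with library totals only and per kilobase. The middle summed to 349.9 ± 6.08 and 338 ± 3.09 CPM, a ratio of 0.967 that became 1.01 with library totals only. Per kilobase the middle went the other way, at 169 ± 2.01 and 174 ± 2.90 (ratio 1.03), and the groups overlapped on neither TMM scale. Med14 alone made up 3.14% ± 0.196 of the Mediator level per kilobase in intact and 2.62% ± 0.145 in deleted cortex.

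The median log2 fold change was 0.12 in the head, 0.10 in the middle, -0.23 for the scaffold gene, -0.02 in the tail and 0.11 in the kinase module. With Med27 to Med30 counted with the head, the median was 0.01 in the head and -0.06 in the tail.

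Levels of different genes were compared per length. On the scale of CPM per kilobase of the deposited gene length, Med25 was highest in intact cortex at 74.3 ± 2.95, followed by Med24 at 52.1 ± 1.25 and Med10 at 36.3 ± 1.04. Exons of a long noncoding RNA gene on the opposite strand cover 92.8% of the 4491 exonic bases of Med10 in the GENCODE models. The deposited length of Med10 is 862 bases, so the overlapped share of what was counted is not known. How far reads of that gene enter the level and the change of Med10 cannot be told here. The lowest were Med12l at 4.08 ± 0.267, Med18 at 4.67 ± 0.276, and Med29 and Med26, which did not differ beyond their spread at 6.11 ± 0.274 and 6.14 ± 0.190. Between these extremes, Med8, Med30, Med21, Med19, Med13, Cdk19 and Med14 lay between 22.1 and 24.05, with SDs of 0.578 to 1.56. In deleted cortex Med25 remained highest at 93.4 ± 7.37 and Med12l lowest at 3.28 ± 0.346. Med16 went from 25.1 ± 0.709 to 15.3 ± 0.932 and Med30 from 23.3 ± 0.578 to 30.2 ± 1.30, so that the order of these tail genes was exchanged.

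**Figure D4:**
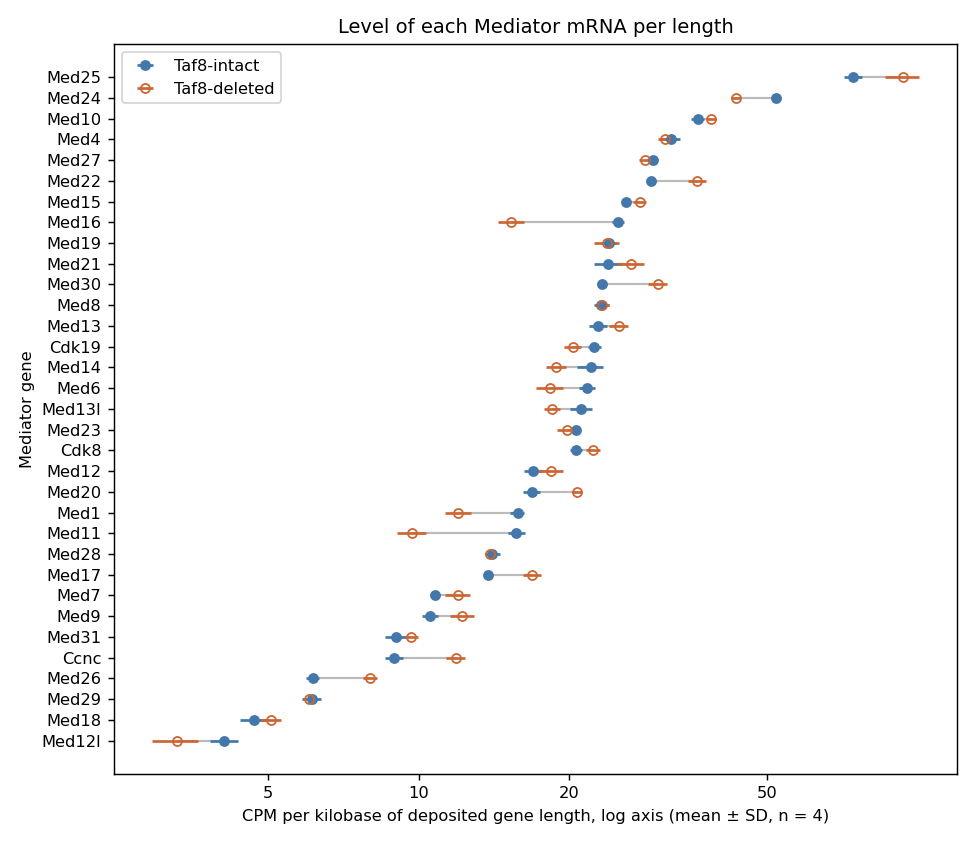
Level of each Mediator mRNA in CPM per kilobase of deposited gene length (log axis), with filled blue points for Taf8-intact and open orange points for Taf8-deleted cortex, and SD of 4 libraries as bars. Med25 is highest and Med12l lowest in both groups, and the longest grey lines that join the groups belong to Med16 and Med11.

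Genes whose products work with Mediator were read from the same fit. Of 14 genes of the other transcription CDKs and cyclins, 10 rose and 1 fell, and the median was 0.19 (log2). Cdk10, the gene of the kinase partner of cyclin M, rose by 0.88 ± 0.04 (log2 ± SE, adjusted p = 9.18e-09). Cdk9, the kinase of P-TEFb, rose by 0.33 ± 0.03 (log2 ± SE, adjusted p = 1.89e-06), and Cdk12, an elongation kinase gene, by 0.24 ± 0.04 (log2 ± SE, adjusted p = 2.08e-04). Ccnk, the cyclin gene of CDK12 and CDK13, was the only one lower, at -0.15 ± 0.05 (log2 ± SE, adjusted p = 0.0139). That call was lost without intact replicate 2, deleted replicate 1 or deleted replicate 2, and with upper-quartile factors or library totals only. Exons of Spata2l cover 9.69% of the exonic bases of Cdk10.

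Of 9 genes of the super elongation complex and its relatives, with which MED26 is known to interact, 3 rose and 3 fell, with a median of -0.05. Mllt3, a reader of acylated histones, was at -0.51 ± 0.04 (log2 ± SE, adjusted p = 3.01e-07) and Aff4, the scaffold of the complex, at -0.19 ± 0.04 (log2 ± SE, adjusted p = 0.00132). Eaf2, encoding a cofactor of ELL, went from 0.485 ± 0.151 to 1.65 ± 0.251 CPM, a low level, with a change of 1.76 ± 0.23 (log2 ± SE, adjusted p = 2.60e-05). Ell3, the remaining gene that fell, was also low, at 1.60 ± 0.478 and 1.00 ± 0.0926 CPM. Exons of Serinc4 on the same strand cover 65.6% of the exonic bases of Ell3. Only 2 of the 9 genes fell with limma voom and quality weights, without intact replicate 4, or without replicate 4 of both groups. Among 10 genes of cohesin and its loader, which is known to join Mediator at enhancers, 6 fell and 1 rose, with a median of -0.13. Only 4 of the 6 had groups that did not overlap, and 4 fell with upper-quartile factors, with library totals only, or without intact replicate 1 or 2 or deleted replicate 2 or 3. Rad21, the subunit that closes the cohesin ring, was at -0.49 ± 0.03 (log2 ± SE, adjusted p = 1.18e-07), Pds5a, encoding a regulator of the ring, at -0.43 ± 0.04 (log2 ± SE, adjusted p = 2.61e-06) and Stag2, a core subunit gene, at -0.27 ± 0.04 (log2 ± SE, adjusted p = 3.21e-05). Mau2, encoding the partner of NIPBL in the loader, rose by 0.23 ± 0.04 (log2 ± SE, adjusted p = 1.64e-04).

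Of 20 transcription factors known to bind a Mediator subunit, 7 rose and 10 fell, with a median of -0.16. Thra, the gene of a thyroid hormone receptor that binds MED1, was at -0.80 ± 0.05 (log2 ± SE, adjusted p = 8.53e-08) and the retinoic acid receptor gene Rarb at -1.05 ± 0.08 (log2 ± SE, adjusted p = 2.17e-07), beside -0.39 ± 0.04 for Med1 itself. The other nuclear receptor genes of the list did not all fall. Thrb and Rxrb were lower and Rara did not pass, while Rxra rose by 0.34 ± 0.04 (log2 ± SE, adjusted p = 1.58e-05). Srebf2, the regulator of cholesterol synthesis that contacts MED15, was at -0.49 ± 0.03 (log2 ± SE, adjusted p = 1.67e-07), while Med15 was at 0.09 ± 0.03. Ctnnb1, the gene of beta-catenin, which contacts MED12, rose by 0.29 ± 0.03 (log2 ± SE, adjusted p = 2.24e-06). Elk1, named after its values were seen because MED23 is its known target, was at -0.56 ± 0.04 (log2 ± SE, adjusted p = 3.61e-07), beside -0.06 ± 0.04 for Med23. Exons of Top2b cover 34.1% of the exonic bases of Rarb, those of Ulk4 14.6% of Ctnnb1 and those of Nr1d1 5.70% of Thra. The counts of these 4 lists stand beside 30.6% higher and 32.9% lower among all genes tested, and a difference between any list and other genes was not tested.

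**Figure D5:**
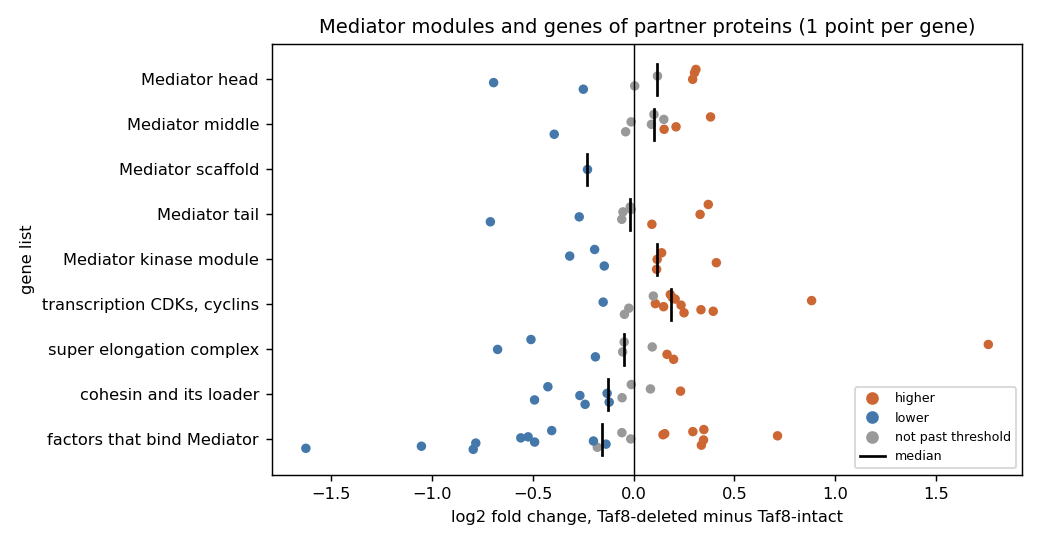
Log2 fold change of each gene (1 point per gene) in the 5 Mediator groups and in 4 lists of genes of partner proteins; orange and blue mark genes called higher and lower, grey those not past the threshold, and black bars the median of the list. Mediator genes lie between -0.71 and 0.41, while the factors that bind Mediator run from -1.63 to 0.71.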

How the data were processed

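The authors deposited raw whole-number counts for each numeric gene identifier in 8 libraries, without normalisation. The submitters' processing notes name bcl2fastq 1.8.4, Subread 1.5.0, featureCounts and build mm10, with no role for each; for the annotation and for multimapping reads, nothing is given in the sources used here. The authors also deposited a length in bases for each gene. The 8 per-embryo lists were identical to the matrix columns, and no per-sample column was left unused. Symbols and positions came from RefSeq (GRCm38.p6), which matched 25275 of 27179 identifiers; identifiers without a symbol held 0.490% to 1.64% of a library and stayed in the fit. Exon overlaps came from GENCODE M21 gene models (GRCm38), which may differ from the models used for counting. For Med20 they hold 7324 exonic bases, against a deposited length of 2040. In these models 18 of the 33 members share exonic bases with another gene, 7 of them 10% or more.

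Counts were fitted with edgeR 4.0.16 in R 4.3.3 over all genes: filterByExpr, TMM factors (0.971 to 1.03), robust quasi-likelihood test without covariates, Benjamini-Hochberg adjustment over 16074 genes, threshold 0.05. The fit was also run on simulated counts in which few genes changed, equally up and down. That run cannot test the scaling of data in which 63.5% of genes are called. A positive log2 fold change means higher in Taf8-deleted cortex, with an SE derived from the F statistic. Paralog ratios used counts with 0.5 added and an exact permutation test over samples. On average over genes, no pair of libraries of a group agreed within sampling noise (chi-square per gene 4.22 to 14.6). Alternatives were other size factors and filters, DESeq2 1.42.0, limma 3.58.1 voom, a replicate block and leaving out each library. The members, the lists and the tests were chosen with earlier results of these data known. Values per library are given for the 2 largest rises and falls of each module, Med14 and all kinase module genes. Of each partner list up to 3 genes with the smallest p are named, with the smallest p in the opposite direction. Ell3 of the super elongation list, and Elk1 and the other nuclear receptor genes of the factor list, are named besides.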

Additional observations from a re-analysis of the deposited data

Results flagged for a closer look

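In 100 groups of 4 values (members, module sums, paralog ratios and marker sums), 5 held a library that stood far from the other 3 of its group, where chance gives about 1 in 20. All were in the Taf8-deleted group. Med18, a head gene, was at 9.10 CPM in replicate 3 and at 8.26 to 8.33 CPM in the others. Med23, the tail gene, was at 105 CPM in replicate 1 and at 95.3 to 96.8 CPM in the others. Med30 was at 28.0 CPM in replicate 2 and at 25.5 to 25.9 CPM in the others, all above the intact libraries. The log2 ratio of Med13l to Med13 was -0.84 in replicate 4 and -0.77 to -0.76 in the others, all below the intact libraries. The summed neuronal markers were at 5236 CPM in replicate 4 and at 4824 to 4858 CPM in the others, all below the intact libraries.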

How the results depend on the processing

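The members called higher and lower numbered 15 and 9 with median-ratio size factors, 17 and 8 with upper-quartile factors, 16 and 8 with library totals only, 13 and 9 without a low-count filter, 15 and 9 with CPM above 1 in 4 libraries, 14 and 9 with DESeq2, 13 and 9 with limma voom, and 14 and 9 with quality weights; leaving out each library in turn gave 12 to 14 and 9 to 9. These settings moved the median of all genes by up to 0.062 (log2). Without the 7 members that share 10% or more of their exonic bases (chosen after seeing the data), 10 rose and 8 fell of 26. Same-numbered embryos did not deviate together (correlations -0.229, 0.00519, -0.000469 and -0.455). So few values cannot exclude a pairing, and the labels do not say that the numbers pair embryos. With the replicate block 12 rose and 9 fell, Med15 being at an adjusted p = 0.0510. With that block no other member call of the edgeR fit changed. The replicate block left the 3 paralog differences at -0.260, -0.436 and -0.331 with an exact sign-flip p = 0.125, the smallest that 4 pairs allow. Without replicate 4 of both groups (chosen after seeing the data) they were -0.262, -0.462 and -0.313 with an exact permutation p = 0.100, again the smallest possible.

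Module medians moved as follows. With Med27 to Med30 in the head, the head was at 0.00524 and the tail at -0.0589. The middle, tail and kinase module were at 0.159, 0.0410 and 0.172 with upper-quartile factors and at 0.163, 0.0450 and 0.176 with library totals only. The tail median was 0.0109 with CPM above 1 in 4 libraries, 0.00136 without replicate 4 of both groups and -0.0366 to 0.00614 leaving out each library. Of the transcription CDKs and cyclins, 0 were lower with upper-quartile factors or library totals only in edgeR (also 0 at an unadjusted p under 0.05, and 1 with DESeq2 and with limma voom), and 0 to 1 leaving out each library. Cohesin genes called higher numbered 2, and lower 4, with upper-quartile factors, library totals only and CPM above 1 in 4 libraries, and 4 to 6 were lower leaving out each library. Only members that did not pass the test changed sign. With upper-quartile factors Med4, Med19, Med27, Med28 and Med29 were at 0.0181, 0.0453, 0.00488, 0.0457 and 0.0410, and with library totals only Med4, Med19, Med23, Med27, Med28 and Med29 at 0.0219, 0.0495, 0.00274, 0.00902, 0.04995 and 0.0450. With CPM above 1 in 4 libraries Med19, Med28 and Med29 were at 0.0150, 0.0155 and 0.0109, and with quality weights Med28 at 0.00382. Without replicate 4 of both groups the 3 were at 0.0430, 0.00372 and 0.00136. Leaving out each library gave Med8 -0.00317 to 0.0256, Med19 -0.0272 to 0.0341, Med28 -0.0346 to 0.0137 and Med29 -0.0366 to 0.0150. The cause of these shifts was not tested. Med18, with 297 to 403 counts in a library, did not pass at 0.12 ± 0.07 (log2 ± SE). Cdk8, with 2152 to 2585 counts, passed at 0.11 ± 0.04. Whether depth limited the call of any member was not tested.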
